A study of Mus musculus with 20 samples.

Results

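The genes *Pax2*, *Emx2* and *Ovol1* encode transcription factors and were followed in nephron progenitor cells (NPCs), the kidney cells that give rise to nephrons, as these were induced by a strong Wnt-like signal. They were chosen by symbol, as the rows of the expression table whose identifier is paired with one of these symbols in the deposited tables of comparisons, and make up 3 of 31130 genes. The 20 libraries came from primary NPCs of embryonic (E16.5) mouse kidneys that carried Cas9 and eGFP in every group, from a constitutive Cas9-eGFP line that the methods describe as crossed with SWR/J mice. The cells received sgRNAs, were left 48 h for the knockout and were then kept for 24 h in CHIR at 1.25 µM (low CHIR) or 5 µM (high CHIR). CHIR blocks the kinase GSK3β, which otherwise sends β-catenin to be degraded, and so stands in for a Wnt signal. CTRL cells received an sgRNA against GFP (3 libraries in each CHIR condition), β-catenin KO cells sgRNAs against *Ctnnb1* (3), α-catenin KO cells an sgRNA against *Ctnna1* (2) and QCKO cells sgRNAs against *Cdh2*, *Cdh3*, *Cdh4* and *Cdh11* (2). Each knockout was a pool of transfected cells sorted for co-delivered mCherry, not a clone, so unedited cells may remain. A replicate number stands for 1 of 3 dates in the sample titles, shared by the groups, whose step (culture, sort or library) the titles do not name: CTRL and β-catenin KO have replicates 1, 2 and 3, α-catenin KO has 1 and 3, and QCKO has 2 and 3.

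β-Catenin has separate roles at the membrane and in the nucleus. At the membrane it links cadherins to α-catenin and so to the actin cytoskeleton, and in the nucleus it joins TCF/LEF factors on the genes that Wnt signals switch on. A Wnt signal from the ureteric bud normally starts the change of NPCs into renal vesicles, the first epithelium of the nephron. *Pax2* encodes a paired-box factor that is needed for the nephric duct, the ureteric bud and the mesenchyme that becomes nephrons, and mice without it lack kidneys. *Emx2* encodes a homeobox factor known for patterning the cerebral cortex, and its loss also prevents kidney formation. *Ovol1* encodes a zinc-finger repressor known from skin and germ cells, where it favours differentiation and epithelial identity.

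The sgRNAs against *Ctnnb1* are shown 5′ to 3′ as the study lists them. In this knockout *Pax2*, and all 3 genes once libraries were blocked by date, were called lower than in CTRL in high CHIR, and none in low CHIR. The sgRNAs numbered 5 and 6 have the same sequence, so that 1 is printed for both.
Ctnnb1 sgRNA 1: atgagcagcgtcaaactgcg
Ctnnb1 sgRNA 3: agccaagcgctggacattag
Ctnnb1 sgRNAs 5 and 6: gagattatgcagtgtcgtga

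The libraries held 18124772 to 28472412 reads assigned to genes (median 21449823). Values are normalized counts, which are reads divided by 1 size factor per library, and the lowest value of the 3 genes (11.8, *Emx2* and *Ovol1* in β-catenin KO) rested on 11 reads. *Ctnna1* in α-catenin KO was at 40.4% of its mean CTRL level in low CHIR and 47.4% in high CHIR, and *Ctnnb1* has no paired identifier here. Of 10 NPC markers only *Six2*, *Cited1*, *Eya1*, *Osr1*, *Wt1* and *Crym* could be followed, since a symbol is known only for genes in the authors' tables of called genes, and so they do not check the label independently. Their summed normalized count was 13890 to 18868 in CTRL in low CHIR and 1441 to 2215 in high CHIR. In a bulk library, fewer cells of a type and less RNA per cell cannot be told apart.

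*Pax2* was higher in high CHIR in every CTRL culture. In CTRL its normalized counts for replicates 1, 2 and 3 were 169.6, 355.3 and 318.6 in low CHIR against 1235, 811.7 and 1818 in high CHIR. The groups did not overlap, and the means were 281.2 ± 98.4 (SD, n = 3) and 1288 ± 505 (SD, n = 3). In α-catenin KO, replicates 1 and 3 had 281.3 and 365.8 in low CHIR against 1033 and 1040 in high CHIR. In QCKO, replicates 2 and 3 had 399.9 and 529.3 in low CHIR against 1134 and 1181 in high CHIR. The high CHIR libraries of these 3 genotypes thus all lay above their low CHIR libraries. In β-catenin KO, replicates 1, 2 and 3 had 123.6, 174.9 and 384.4 in low CHIR against 191.8, 479.9 and 440.6 in high CHIR, and here the CHIR conditions overlapped.

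*Emx2* was likewise higher in high CHIR in every CTRL culture but spread widely between cultures. CTRL replicates 1, 2 and 3 had normalized counts of 15.2, 108.3 and 75.2 in low CHIR against 670.2, 439.0 and 2135 in high CHIR, without overlap between the conditions. The SD of the CTRL libraries was 71.3% of the mean in low CHIR and 85.1% in high CHIR. α-Catenin KO had 12.0 and 109.5 in low CHIR against 633.8 and 1313 in high CHIR (replicates 1 and 3). QCKO had 32.1 and 86.8 in low CHIR against 676.1 and 1976 in high CHIR (replicates 2 and 3). Replicate 3 gave the highest *Emx2* of each genotype in high CHIR, in β-catenin KO too. In that knockout the values were 11.8, 112.9 and 232.2 in low CHIR against 26.6, 227.2 and 444.1 in high CHIR, so that the conditions overlapped.

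*Ovol1* was the most even of the 3 in induced CTRL cells. Its normalized counts in CTRL replicates 1, 2 and 3 were 19.6, 75.8 and 61.4 in low CHIR against 398.0, 436.8 and 452.1 in high CHIR, where the SD was 6.50% of the mean. α-Catenin KO had 12.0 and 78.1 in low CHIR against 273.1 and 506.3 in high CHIR (replicates 1 and 3). QCKO had 62.5 and 80.0 in low CHIR against 573.5 and 494.7 in high CHIR (replicates 2 and 3), the highest values of the gene other than α-catenin KO replicate 3. β-Catenin KO had 11.8, 45.0 and 100.1 in low CHIR against 18.5, 197.3 and 112.8 in high CHIR, all below the lowest high CHIR library of the other genotypes.

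**Figure D1:**
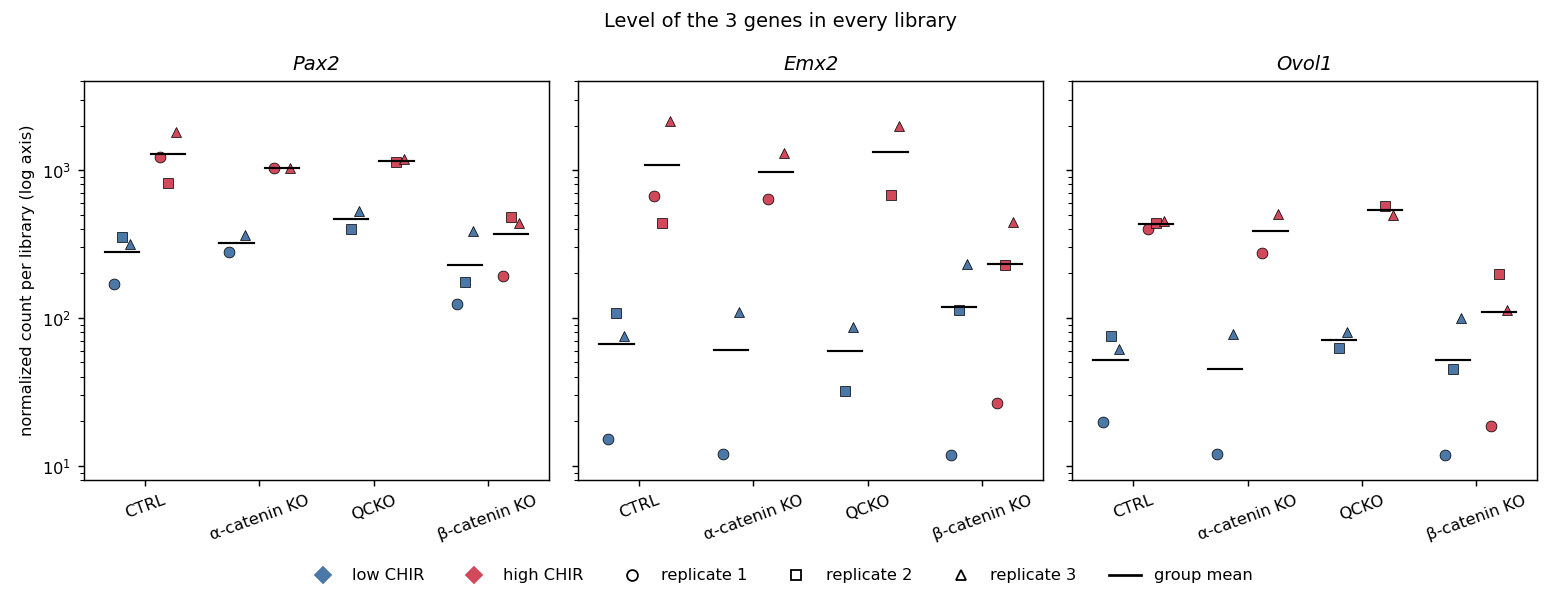
Normalized count of each gene (log axis) in the 20 libraries by genotype, with low CHIR in blue, high CHIR in red, a symbol for each replicate number and a line at the group mean. High CHIR libraries of CTRL, α-catenin KO and QCKO lie above every low CHIR library of the same gene, while those of β-catenin KO reach down into the low CHIR range.

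Ordered by mean normalized count, *Pax2*, *Emx2* and *Ovol1* each had CTRL, α-catenin KO and QCKO in high CHIR as their 3 highest groups, followed by a gap. The next group down was QCKO in low CHIR for *Pax2* (mean 464.6) and β-catenin KO in high CHIR for *Emx2* (232.6) and *Ovol1* (109.5). The groups next to that gap did not overlap, but 1 *Emx2* library of β-catenin KO (444.1) reached above the lowest CTRL library (439.0). Among the 5 groups under the gap every neighbour overlapped the next for all 3 genes. Above it, α-catenin KO and QCKO did not overlap for *Pax2* (1033 to 1040 and 1134 to 1181), nor did CTRL and QCKO for *Ovol1* (398.0 to 452.1 and 494.7 to 573.5), whereas *Emx2* neighbours overlapped throughout. Groups of 2 or 3 libraries separate easily, and the share of all genes that do so was not counted. Between QCKO and CTRL in high CHIR 0% of all genes passed the test used below. Once blocked by date, the *Ovol1* difference there was -0.11 (log2).

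The response to CHIR was then expressed as the log2 fold change of high over low CHIR. In CTRL it was 2.19 ± 0.31 (SE) for *Pax2*, 4.06 ± 0.89 for *Emx2* and 3.21 ± 0.59 for *Ovol1*, or 4.55-fold, 16.7-fold and 9.28-fold on the log2(normalized count + 1) scale. These 3 values are a description without a test, because the symbols of the 3 genes come from the authors' table of genes that differed in this very comparison. Each comparison of a knockout with CTRL, in level or in response, uses CTRL libraries that entered this choice, which favours genes high in CTRL in high CHIR, so its p-values and calls for the 3 genes are not independent of the choice. The response within a knockout does not use the CTRL levels. Its SE in the main fit does draw on the spread of the CTRL libraries, so its calls are not fully independent of the choice either. Over all genes tested, 4.84% were called higher in high CHIR in CTRL, where a call needs an adjusted p under 0.05 and a log2 fold change over 0.5 in size (limma, Benjamini-Hochberg over all genes).

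Whether the response needs α-catenin, the link from cadherins to actin, was the question of the next comparison. In α-catenin KO *Pax2* rose by a log2 fold change of 1.69 ± 0.38 (SE; limma adjusted p = 0.0237), *Emx2* by 4.59 ± 1.10 (adjusted p = 0.033) and *Ovol1* by 3.54 ± 0.72 (adjusted p = 0.0133). All 3 were called, against 2.4% of all genes called higher. The calls rest on 2 cultures. That of *Pax2* was lost without any 1 of the 4 libraries (adjusted p 0.0605 to 0.220), that of *Emx2* without low CHIR replicate 1, high CHIR replicate 1 or high CHIR replicate 3 (0.0913 to 0.363), and that of *Ovol1* without replicate 1 in low CHIR (0.146) or replicate 3 in high CHIR (0.140), and all were lost when the β-catenin KO libraries joined the fit (0.0823 to 0.113). With only the groups compared in the fit *Emx2* (0.0578) and *Ovol1* (0.0811) were not called, and edgeR did not call *Emx2* (0.0715).

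The difference of the response from that of CTRL was not called in α-catenin KO for any of the 3 genes, and 0% of all genes were called for it. For *Pax2* the response was 0.50 lower on the log2 scale in α-catenin KO, that is a difference of -0.50 (95% interval -1.56 to 0.57). For *Emx2* the difference was 0.52 (95% interval -2.54 to 3.59) and for *Ovol1* 0.32 (-1.70 to 2.34). These intervals are wide, and for *Emx2* they would hold a change of several log2 units either way. Levels in high CHIR differed from CTRL by -0.24 for *Pax2* (95% interval -0.99 to 0.52), 0.09 for *Emx2* (-2.08 to 2.26) and -0.20 for *Ovol1* (-1.63 to 1.23), with 0% of all genes called. In low CHIR the differences were 0.26, -0.43 and -0.53, none of them called, again with 0% of all genes called.

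In QCKO, in which the 4 cadherins were targeted, *Emx2* rose by 4.42 ± 1.10 (SE, log2; limma adjusted p = 0.0349) and *Ovol1* by 2.90 ± 0.72 (adjusted p = 0.0362). *Pax2* was 1.33 ± 0.38 higher and was not called (adjusted p = 0.0715). With the labelled date as a block, *Pax2* was called as well (adjusted p = 0.0354). High CHIR raised 2.62% of all genes in QCKO, and 4.04% with the block. Without any 1 of the 4 QCKO libraries no call was made for *Emx2* (adjusted p 0.0778 to 0.297) or *Ovol1* (0.142 to 0.228), nor with β-catenin KO in the fit (0.116 and 0.167).

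Of the 3 genes, *Pax2* had the QCKO response whose point estimate lay farthest below that of CTRL relative to its error. The difference was -0.86 (95% interval -1.92 to 0.21) and was not called, with 0% of all genes called. In low CHIR the *Pax2* level was 0.78 higher than in CTRL (95% interval 0.03 to 1.53, unadjusted p = 0.0437), which did not pass adjustment (limma adjusted p = 1.00), where 0.00605% of all genes were called. QCKO has no replicate 1, in which CTRL was lowest (169.6), and once blocked by date the difference was 0.68 (unadjusted p = 0.0565). Both QCKO libraries (399.9 and 529.3) exceeded the highest CTRL library (355.3) in low CHIR. In high CHIR the level differed by -0.08 (-0.83 to 0.68). For *Emx2* and *Ovol1* the QCKO response differed from that of CTRL by 0.36 (-2.71 to 3.43) and -0.32 (-2.34 to 1.70). Their high CHIR levels differed by 0.43 (-1.74 to 2.60) and 0.31 (-1.12 to 1.74), and 0% of all genes were called there.

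In β-catenin KO the response was not called for any of the 3 genes. The log2 fold change was 0.76 ± 0.42 (SE) for *Pax2*, 1.01 ± 1.17 for *Emx2* and 0.96 ± 0.84 for *Ovol1* (limma adjusted p = 0.999 each), and 0.00599% of all genes were called higher. With all libraries and no block no unadjusted p was under 0.05, with the block that of *Pax2* was 0.0336 (adjusted p = 0.596), and edgeR and DESeq2 called none of the 3 either. The difference from the CTRL response was -1.43 (95% interval -2.68 to -0.17) for *Pax2*, -3.05 (-6.57 to 0.47) for *Emx2* and -2.25 (-4.78 to 0.27) for *Ovol1*. None passed adjustment (limma adjusted p = 0.406, 0.550 and 0.536, and 0.136, 0.0863 and 0.112 when blocked by labelled date), while 0.671% of all genes did. The unadjusted p of *Pax2* was 0.0286, and with the block all 3 were under 0.05 (0.00719, 0.00320 and 0.00500), as they were by DESeq2 (0.0101, 0.0474 and 0.0478), while edgeR had 1 of the 3 under 0.05 and the fit with only the groups compared had 0. Of all 16691 genes, 1730 had an unadjusted p under 0.05, and 2426 with the block. The response of β-catenin KO was not tested against that of α-catenin KO or QCKO.

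In high CHIR *Pax2* was lower in β-catenin KO than in CTRL, whose libraries also led to the choice of the 3 genes, with a log2 fold change of -1.83 ± 0.42 (SE; limma adjusted p = 0.0129) and 28.8% of the CTRL mean. Its 3 libraries (191.8 to 479.9) all lay under the lowest CTRL library (811.7). *Ovol1* differed by -2.50 ± 0.84 (adjusted p = 0.0686, not called), at 25.5% of the CTRL mean, and its libraries (18.5 to 197.3) also lay under all CTRL libraries. *Emx2* differed by -2.61 ± 1.17 (adjusted p = 0.163, not called), at 21.5% of the CTRL mean, and 1 β-catenin KO library (444.1) exceeded 1 CTRL library (439.0). With the labelled date as a block all 3 were called (adjusted p = 0.00142, 0.00932 and 0.00276 for *Pax2*, *Emx2* and *Ovol1*). Of all genes, 2.86% were called lower in β-catenin KO, and 5.17% with the block. The *Pax2* call was lost without CTRL replicate 3 (adjusted p = 0.0552), without β-catenin KO replicate 1 (0.0640) or with only the groups compared in the fit (0.0890), and *Ovol1* was called without β-catenin KO replicate 2 (0.0434). In low CHIR the 3 genes differed between β-catenin KO and CTRL by -0.40, 0.45 and -0.24, none called, with 0.0659% of all genes called.

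**Figure D2:**
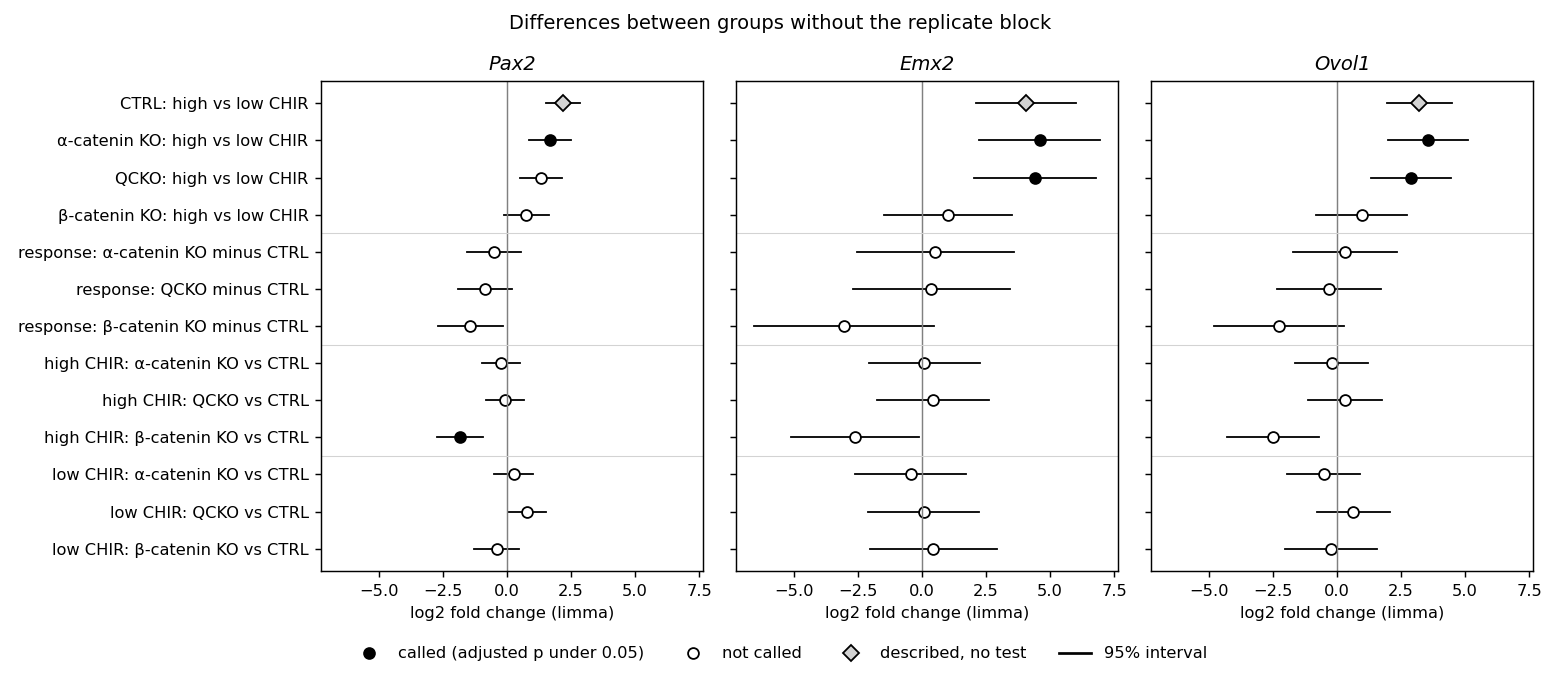
Log2 fold changes (limma, horizontal axis) with 95% intervals for the response to CHIR by genotype, the difference of each knockout's response from CTRL, and each knockout against CTRL in high and low CHIR. Filled circles were called without the block, open circles were not, and grey diamonds mark the CTRL response, which carries no test. The intervals of α-catenin KO and QCKO against CTRL span 0 in high CHIR, and that of *Pax2* in β-catenin KO reaches from -2.72 to -0.94.

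Taken by labelled date, high exceeded low CHIR in all 10 pairs for each of the 3 genes, the β-catenin KO pairs included. For *Emx2* the rise in β-catenin KO was nearly the same on every date, with log2 differences of 1.10, 1.00 and 0.93 in replicates 1, 2 and 3, while the CTRL rises were 5.38, 2.01 and 4.81. The *Emx2* level itself nonetheless ran from 26.6 to 444.1 over these β-catenin KO libraries. For *Ovol1* the β-catenin KO rises of 0.60, 2.11 and 0.17 were all smaller than the smallest CTRL rise (2.51). For *Pax2* replicate 2 went the other way: the rise was 1.45 in β-catenin KO and 1.19 in CTRL. Replicates 1 and 3 had 0.63 and 0.20 in β-catenin KO and 2.86 and 2.51 in CTRL.

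**Figure D3:**
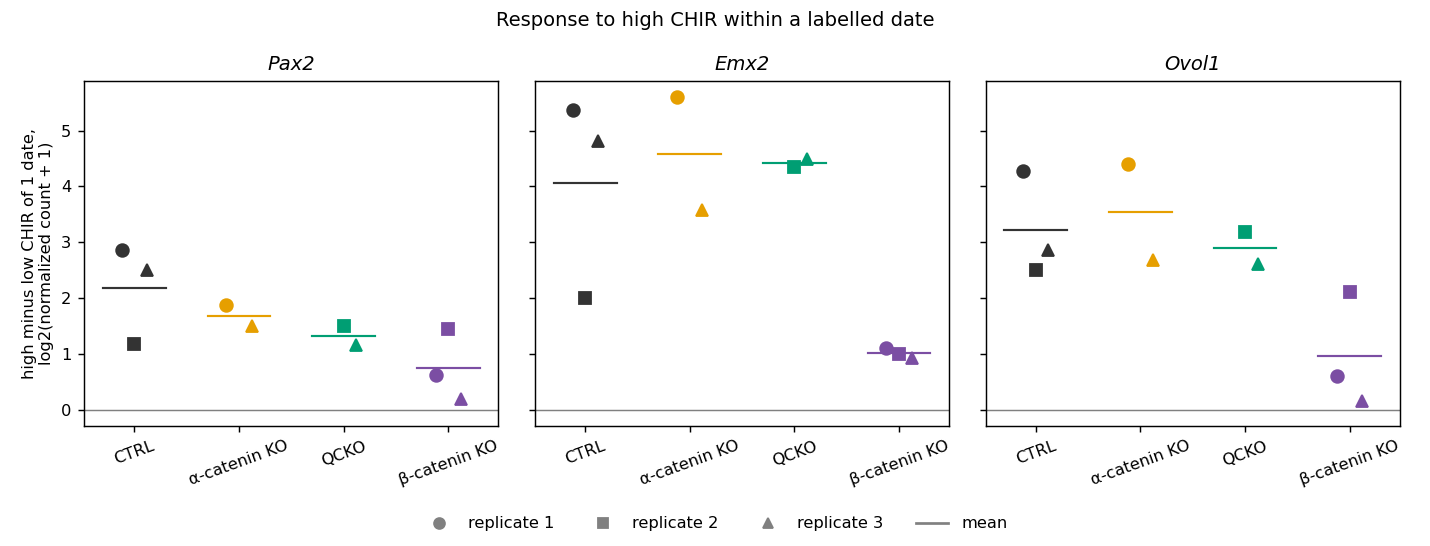
Difference of log2(normalized count + 1) between the high and the low CHIR library of 1 genotype and labelled date (vertical axis), by genotype, with a symbol for each replicate number and a line at the mean. All points lie above 0, and the β-catenin KO points lie lowest apart from *Pax2* replicate 2.

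The size of the deficit in β-catenin KO differed between dates, and it did so in parallel for the 3 genes. In high CHIR *Pax2* stood at 15.5%, 59.1% and 24.2% of the CTRL library of the same date in replicates 1, 2 and 3. The shares of *Emx2* were 3.96%, 51.8% and 20.8%, and those of *Ovol1* 4.64%, 45.2% and 24.9%. Replicate 2 thus kept most and replicate 1 least. *Wnt4*, a Wnt ligand made by induced NPCs and needed for their epithelial transition, had 4.76%, 57.4% and 22.2%. The median over the 799 genes called higher with CHIR in CTRL was 42.7%, 61.7% and 66.5%. These shares use the CTRL libraries that chose those 799 genes and carry no test.

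In low CHIR *Wnt4* was already above CTRL in 2 of the 3 β-catenin KO cultures. It was at 73.3% of the same-date CTRL library in replicate 1 and at 1145% and 881% in replicates 2 and 3. *Emx2* was at 77.9%, 104% and 309%, *Ovol1* at 60.2%, 59.3% and 163%, and *Pax2* at 72.9%, 49.2% and 121%. The 3 genes thus exceeded CTRL in replicate 3 but, apart from a small excess of *Emx2*, not in replicate 2, although *Wnt4* was high in both. The part of this low CHIR state in the small β-catenin KO response was not tested.

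**Figure D4:**
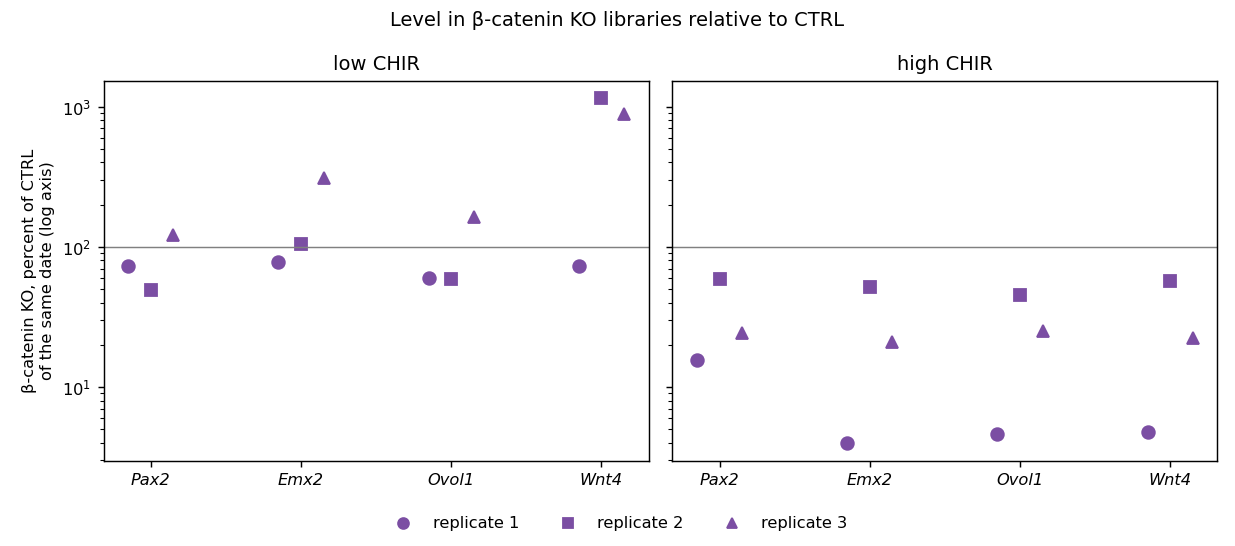
Level in each β-catenin KO library as a percent of the CTRL library of the same date (log axis) for *Pax2*, *Emx2*, *Ovol1* and *Wnt4*, in low CHIR (left) and high CHIR (right), with a symbol for each replicate number and a line at 100%. In high CHIR all points lie under the line, with replicate 1 lowest and replicate 2 highest for every gene, and in low CHIR *Wnt4* lies far above it in replicates 2 and 3.

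The labelled date also separated *Emx2* and *Ovol1* in low CHIR. In low CHIR the 3 replicate 1 libraries had 11.8 to 15.2 normalized counts of *Emx2* and the other 7 libraries 32.1 to 232.2, without overlap. For *Ovol1* the ranges were 11.8 to 19.6 and 45.0 to 100.1. *Pax2* overlapped (123.6 to 281.3 in replicate 1 and 174.9 to 529.3 otherwise). In high CHIR outside β-catenin KO, replicate 1 was also lower for *Ovol1* (273.1 to 398.0 against 436.8 to 573.5), while *Emx2* and *Pax2* overlapped. This split was seen in the values, was not counted over all genes and carries no test. Since α-catenin KO includes replicate 1 and QCKO does not, the fits without the block compare these genotypes over different dates.

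Across the 20 libraries the genes ran together. Pearson's r of log2(normalized count + 1) was 0.892 for *Pax2* with *Emx2*, 0.931 for *Pax2* with *Ovol1* and 0.950 for *Emx2* with *Ovol1*. After the mean of each group was taken out, r was 0.878, 0.819 and 0.886, so that the genes also followed each other among cultures of 1 group. The points share genotype, CHIR dose and labelled date and carry no p.

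The genes most like each of them by r, among those with a symbol, were then listed. For *Pax2* these were *Sox11* (0.966), *Hoxb8* (0.964), *Pik3c2b* (0.961), *Cecr2* (0.959) and *Slc4a8* (0.954). *Sox11* encodes an SRY-box transcription factor and *Hoxb8* a homeobox factor. For *Emx2* the first was *Emx2os* (0.977), followed by *Emid1* (0.973), *E330013P04Rik* (0.971), *Ccnjl* (0.970) and *Sorl1* (0.968). For *Ovol1* they were *Plet1* (0.979), an epithelial surface protein gene, *Zcchc18* (0.978), *Cecr2* (0.975), *Grb7* (0.974), which encodes an adaptor of receptor tyrosine kinases, and *Gm35610* (0.971). Of these 14 genes, *Sox11*, *Hoxb8*, *Cecr2*, *Zcchc18* and *Gm35610* were called lower in β-catenin KO in high CHIR (log2 fold changes -1.56, -1.24, -2.59, -1.60 and -2.12, limma adjusted p 0.00961 to 0.0484), beside 2.86% of all genes. That is no separate support, since the same libraries chose them.

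Neighbouring transcripts on chromosome 19, which carries all 3 genes, bear on how the counts can be read. The counts come from a kit that does not mark the strand. *Emx2os*, an antisense RNA, ends 54 bases from *Emx2* (GRCm38.p6, chr19:59458690-59465357), and reads near this junction cannot be assigned by strand. The normalized count of *Emx2os* was 1.79 to 31.4 in CTRL in low CHIR and 134.6 to 407.5 in high CHIR. Over *Pax2* (chr19:44746601-44838269) lie the long noncoding RNA 1700039E22Rik (7446 bases shared) and the microRNA *Mir6405* (124 bases), and *Gm35610*, a long noncoding RNA, lies 3889 bases outside it. In CTRL *Gm35610* had 10.7 to 31.8 in low CHIR and 111.1 to 173.2 in high CHIR. *Ovol1* (chr19:5549137-5560575) shares 1238 bases with the pseudogene *Gm31166* and 326 bases with *Ap5b1*, which encodes a subunit of the AP-5 adaptor complex. *Ap5b1* had 8.03 to 40.1 in CTRL in low CHIR and 50.2 to 114.4 in high CHIR. In high CHIR it differed between β-catenin KO and CTRL by -0.70 ± 0.66 (limma adjusted p = 0.510, not called). *Ovol1* differed there by -2.50, also not called without the block (limma adjusted p = 0.0686). With CHIR in α-catenin KO *Ap5b1* was called higher, as *Ovol1* was (2.89 ± 0.72, limma adjusted p = 0.0394). In QCKO in high CHIR *Ap5b1* had 187.1 to 223.5. The part of shared reads in the *Ovol1* counts was not tested.

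Promoter windows from RefSeq (GRCm38.p6) were searched on both strands for the letters CTTTGA and CTTTGT, which resemble the core bound by TCF/LEF factors. The reason was that *Pax2*, and with the block all 3 genes, were called lower in β-catenin KO in high CHIR. *Pax2* and *Emx2* have 4 windows of 250 bases before a start site. A match was found in 2 of the 3 *Pax2* windows and is shown in capitals, as ACAAAG, the reverse complement of CTTTGT. It begins 122 bases before the first start site and 190 bases before the second. *Emx2* has no match in its window. Over all 32851 windows 13.8% hold CTTTGA, 16.5% hold CTTTGT and 27.6% hold either, so a match is common and is a description, not a site.
Pax2 window 1, plus strand, chr19:44746351-44746600: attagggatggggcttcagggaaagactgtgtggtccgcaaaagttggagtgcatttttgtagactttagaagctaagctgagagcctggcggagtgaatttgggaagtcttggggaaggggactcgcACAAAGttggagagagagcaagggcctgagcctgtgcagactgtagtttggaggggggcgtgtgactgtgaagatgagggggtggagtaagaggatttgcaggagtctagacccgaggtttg
Pax2 window 2, plus strand, chr19:44755502-44755751: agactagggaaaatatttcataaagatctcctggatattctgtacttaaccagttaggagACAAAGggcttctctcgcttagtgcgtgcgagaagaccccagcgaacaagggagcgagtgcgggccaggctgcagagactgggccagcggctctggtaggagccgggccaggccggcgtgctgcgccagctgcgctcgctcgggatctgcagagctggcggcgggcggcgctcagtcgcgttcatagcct
Emx2 window, plus strand, chr19:59458440-59458689: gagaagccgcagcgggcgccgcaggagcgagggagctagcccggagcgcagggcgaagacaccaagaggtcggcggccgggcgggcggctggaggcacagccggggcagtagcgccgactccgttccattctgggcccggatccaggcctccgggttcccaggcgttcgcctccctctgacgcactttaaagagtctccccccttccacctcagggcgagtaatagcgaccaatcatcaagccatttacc

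Among 15 other transcription factors of the nephron lineage with an identifier (of 30 listed), 4 rose and 11 fell with high CHIR in α-catenin KO, where 2.4% of all genes were called higher and 1.99% lower. *Lef1*, a nuclear partner of β-catenin, rose by 4.06 ± 0.25 (SE, log2), *Lhx1*, a LIM homeobox factor of the renal vesicle, by 5.27 ± 1.08 and *Gata3* by 3.27 ± 0.63. *Tcf7*, a relative of *Lef1*, rose by 1.04 ± 0.27. *Six2*, which keeps NPCs self-renewing, fell by 4.77 ± 0.32, and *Osr1* fell by 4.42 ± 0.37. QCKO also had 4 called higher and 11 lower, beside 2.62% of all genes higher and 2.31% lower, with *Lef1* 4.33 ± 0.25 and *Lhx1* 4.36 ± 1.08 higher. The medians over the 15 were -1.93 and -2.32, beside 0.01 and -0.00 over all genes. A factor could be followed only where its symbol came from a table of called genes, so these counts and medians describe preselected genes and are not comparable with all genes. In CTRL 4 were called higher and 10 lower (median -1.94, with 4.84% of all genes called higher and 5.82% lower). In β-catenin KO 0 of 15 were called by limma (median -0.28, with 0.00599% of all genes called higher). An unadjusted p under 0.05 was found for 6 of the 15, and for 741 of all 16691 genes.

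Against CTRL in high CHIR, 8 of these 15 factors were called higher in β-catenin KO and 0 lower, where 7.67% of all genes were called higher. These factors too have symbols only through tables of called genes that share libraries with this comparison, so the count is not independent. *Meox2* was 5.42 ± 0.54 higher, *Osr1* 4.26 ± 0.36 and *Six2* 2.88 ± 0.28 (log2). All 8 were among the factors called lower with CHIR in CTRL. The 4 called higher with CHIR in CTRL, as *Pax2* was raised there, had lower point estimates in β-catenin KO without a call. These were *Lef1* (-1.52 ± 0.77, limma adjusted p = 0.212), *Lhx1* (-1.97 ± 1.08, 0.245), *Tcf7* (-0.80 ± 0.48, 0.291) and *Gata3* (-0.28 ± 0.56, 0.781). Of the 6 NPC markers all were called higher, 4 of which (*Six2*, *Osr1*, *Eya1* and *Wt1*) are among these 8 factors, and their summed normalized count was 6931 to 13039 in β-catenin KO in high CHIR and 1441 to 2215 in CTRL.

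Genes known to work with each of the 3 were few among those with an identifier, and these too were preselected through tables of called genes. Of 13 *Pax2* partners and targets 4 could be followed. In both α-catenin KO and QCKO, *Gata3*, *Lhx1* and *Wnt4* were called higher and *Eya1*, a phosphatase that acts as a transcriptional cofactor, lower, where 2.4% and 2.62% of all genes were higher and 1.99% and 2.31% lower. In β-catenin KO in high CHIR *Eya1* was 1.29 ± 0.32 (SE) higher than in CTRL (limma adjusted p = 0.0206). *Wnt4* differed by -2.45 ± 0.94 (adjusted p = 0.103, not called). Of 11 *Emx2* relatives and patterning partners 2 could be followed. *Nr2f2*, an orphan nuclear receptor of the cortex and mesenchyme, was 1.68 lower in α-catenin KO with high CHIR (log2 fold change -1.68) and 1.66 lower in QCKO (-1.66), both called. In β-catenin KO in high CHIR it differed from CTRL by 0.73 ± 0.23 (adjusted p = 0.0560, not called). *Pbx3*, a homeobox cofactor, had responses of 0.23 ± 0.28 in α-catenin KO (adjusted p = 0.838) and 0.52 ± 0.28 in QCKO (0.447), neither called. In CTRL *Pbx3* rose by 0.95 ± 0.23 and was called (limma adjusted p = 0.0190). Its response differed from that of CTRL by -0.71 ± 0.36 in α-catenin KO and -0.42 ± 0.36 in QCKO, neither called. *Pbx3* was lower in β-catenin KO than in CTRL in high CHIR (-1.05 ± 0.21, adjusted p = 0.00612).

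Of 23 *Ovol1* relatives and genes of the epithelial-mesenchymal balance, 9 had an identifier. *Snai2* and *Zeb1*, repressors of epithelial genes, fell in α-catenin KO (log2 fold changes -2.60 ± 0.44 and -2.57 ± 0.46) and in QCKO (-2.70 ± 0.44 and -3.11 ± 0.46), and were the 2 of 9 called lower there, with 0 called higher (of all genes 1.99% and 2.31% were lower and 2.4% and 2.62% higher). *Snai1*, a repressor of the same family as *Snai2*, had 0.32 ± 0.82 in α-catenin KO and -0.38 ± 0.82 in QCKO, neither called. The medians over the 9 were 0.17 and -0.38. *Grhl1*, a Grainyhead-like factor of epithelia, was 2.20 ± 0.71 and 2.60 ± 0.71 higher without a call (limma adjusted p = 0.128 and 0.0581). In β-catenin KO in high CHIR, *Zeb1* (2.62 ± 0.39, log2), *Snai2* (2.06 ± 0.45) and *Myc* (1.73 ± 0.40) were called higher than in CTRL and *Id2* lower (-1.22 ± 0.23), with 7.67% of all genes higher and 2.86% lower. With CHIR in α-catenin KO and QCKO, *Ovol1* was thus called in the opposite direction to *Snai2* and *Zeb1*. *Snai1* and the other followed genes of the list had no call there. In α-catenin KO *Cdh1* had 0.59 ± 1.10, *Krt8* 0.69 ± 1.09 and *Vim* -0.49 ± 0.42. In CTRL *Cdh1* (-1.95 ± 0.90) and *Krt8* (-1.21 ± 0.89) were lower with CHIR, also without a call.

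The kidney's ureteric epithelium also expresses *Pax2* and *Emx2*, so its markers are given beside them. Of 15 markers 6 had an identifier (*Wnt11*, *Hoxb7*, *Gata3*, *Krt8*, *Cdh1* and *Tfap2b*). Their summed normalized count was 320.4 to 1457 in CTRL in low CHIR and 890.8 to 1078 in high CHIR, and 593 to 1156 in β-catenin KO in high CHIR. In α-catenin KO it was 429.3 to 1211 in low and 1289 to 2322 in high CHIR, and in QCKO 640.2 to 877.9 in low and 1838 to 2121 in high CHIR, so that it moved with the 3 genes in these knockouts. *Wnt11*, the most specific of these for the ureteric tip, was at 0 in 4 of 20 libraries and at most 15.5. *Hoxb7* and *Gata3* were called higher with CHIR in CTRL and α-catenin KO, and *Gata3* in QCKO. Of all genes, 4.84% (CTRL), 2.4% (α-catenin KO) and 2.62% (QCKO) were called higher. *Cdh1*, *Krt8* and *Tfap2b* had no call, and their CTRL estimates were lower with CHIR (log2 fold changes -1.95, -1.21 and -1.43). Their estimates were mixed in the knockouts, with 0.59, 0.69 and -0.63 for α-catenin KO. QCKO gave 0.43, -0.22 and -2.45. Of 8 endothelial markers only *Tek* had an identifier and rose from 0 to 3.25 in CTRL in low CHIR to 89.7 to 177 in high CHIR. Of 10 stromal markers only *Meis1* had one and went from 2143 to 2961 down to 749.9 to 1090. Of 8 leukocyte markers 0 had one. The part of such cells in the levels of the 3 genes was not tested.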

How the data were processed

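RNA of sorted mCherry+ NPCs was sequenced in 20 libraries (paired ends), with cDNA from a kit that does not mark the strand. The submitters' processing notes name bcl2fastq, STAR, Subread featureCounts, Salmon and DESeq2, and the builds GRCm38, GRCh38 and mm10, without roles. The deposited signal values are normalized counts, in which the authors had scaled the reads of each library by its own size factor. All values of the 18 libraries where this can be read off came out as whole reads (tolerance 0.05). For replicate 2 of β-catenin KO in low CHIR and replicate 3 of α-catenin KO in high CHIR the factor is nearly 1, so that this says less. The authors' tables of comparisons hold log2 ratios and p-values from DESeq2. They were used only to pair 4316 of 31130 identifiers with symbols, so a gene with a symbol had differed in one of those comparisons. Positions and promoters are from RefSeq (GRCm38.p6) by symbol, and 2 of the 3 genes matched a promoter entry.

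In limma 3.58.1 (R 4.3.3, trend, 1 mean per group), log2(normalized count + 1) was fitted for genes with a mean of at least 10. Comparisons without β-catenin KO were fitted on 14 libraries (16516 genes) and those with it on all 20 (16691 genes). A gene was called at a Benjamini-Hochberg adjusted p under 0.05 over all genes and a log2 fold change over 0.5 in size. Alternatives were no filter, a pseudocount of 0.25 or of 5, a fold threshold of 1 (log2), only the groups compared, all 20 libraries, a replicate block, edgeR 4.0.16 (quasi-likelihood) and DESeq2 1.42.0 on the recovered reads, and leaving out each library. The calling was tested on simulated data.

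The replicate numbers pair the samples because the sample titles give each number 1 date, without naming its step. The correlation of the deviations of low and high CHIR libraries of 1 date over genes ran from 0.0474 to 0.721 (10 pairs). The study calls its replicates biological, and the sources used here do not say which animals each culture came from, so p-values measure the spread between cultures.

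The 3 genes and all gene lists were chosen with earlier results of these data known. Genes named beside them are, by rule, the 5 most correlated with each over the 20 libraries, list members called with CHIR in CTRL (at most 8 a list), *Wnt4* and the targeted genes. *Id2*, *Snai1*, *Tcf7*, *Vim*, *Ap5b1* and the neighbouring transcripts fall outside it and were named after their values were seen. The same holds for *Cdh1*, *Krt8*, *Tfap2b* and *Wnt11* as list members.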

Additional observations from a re-analysis of the deposited data

How the results depend on the processing

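The 13 comparisons of *Pax2*, *Emx2* and *Ovol1* were recomputed under every alternative. Of 591 recomputed values 513 kept direction and side of the threshold, 30 lost a call, 7 gained one and 41 changed sign, the last only among values that were not called. Calls held without the filter, with pseudocounts of 0.25 and 5 and with a log2 fold change over 1. In α-catenin KO the response was not called for *Emx2* (4.59) and *Ovol1* (3.54) with only the groups compared, for *Pax2* (1.69), *Emx2* (4.59) and *Ovol1* (3.54) with all 20 libraries, and for *Emx2* by edgeR (3.99). In QCKO *Pax2* was called with only the groups compared (1.33) and by DESeq2 (1.32), and *Emx2* (4.42) and *Ovol1* (2.90) were not with all 20 libraries. In β-catenin KO in high CHIR *Pax2* was not called with only the groups compared (-1.83), and *Ovol1* was by DESeq2 (-1.99). The cause was not tested.

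With the replicate block, which pairs libraries by labelled date, *Pax2* in QCKO was called (1.33), as were *Emx2* (-2.61) and *Ovol1* (-2.50) in β-catenin KO against CTRL in high CHIR, and no other call changed. Under the block the small differences of QCKO from CTRL changed sign for *Emx2* (-0.068) and *Ovol1* (-0.11) in high CHIR and for *Emx2* in low CHIR (-0.43). By edgeR and DESeq2 the sign changed for *Emx2* in the α-catenin KO difference of response (-0.073 and -0.044), in α-catenin KO in high CHIR (-0.17 and -0.16) and in QCKO in low CHIR (-0.17 and -0.16), and for *Ovol1* in β-catenin KO in low CHIR (0.035 and 0.011). None of these was called.

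Leaving out 1 library at a time, with a lone library assumed to vary like the other groups, gave a CTRL response of 3.23 to 4.61 for *Emx2*. The α-catenin KO response was 1.5 to 1.88 for *Pax2*, 3.05 to 6.13 for *Emx2* and 2.24 to 4.84 for *Ovol1*, and the QCKO response 3.65 to 5.2 for *Emx2* and 2.72 to 3.07 for *Ovol1*. The β-catenin KO response was 0.40 to 1.22 for *Pax2*, 0.16 to 1.94 for *Ovol1* and -0.21 to 2.19 for *Emx2*, in each case lowest without low CHIR replicate 1. The difference of response from CTRL was -0.79 to -0.17 (*Pax2*), -1.02 to 2.06 (*Emx2*) and -0.98 to 1.62 (*Ovol1*) in α-catenin KO, -1.15 to -0.53 (*Pax2*), -0.41 to 1.19 (*Emx2*) and -0.69 to 0.26 (*Ovol1*) in QCKO, and -1.78 to -0.97 (*Pax2*), -4.27 to -1.87 (*Emx2*) and -3.06 to -1.27 (*Ovol1*) in β-catenin KO. Against CTRL in high CHIR, α-catenin KO gave -0.53 to 0.050 (*Pax2*), -0.43 to 0.75 (*Emx2*) and -0.65 to 0.24 (*Ovol1*), QCKO -0.37 to 0.21 (*Pax2*) and -0.34 to 1.2 (*Emx2*), and β-catenin KO -2.12 to -1.41 (*Pax2*), -3.43 to -1.43 (*Emx2*) and -3.19 to -1.52 (*Ovol1*). In low CHIR, α-catenin KO gave -0.069 to 0.46 (*Pax2*), -1.97 to 1.11 (*Emx2*) and -1.83 to 0.77 (*Ovol1*), QCKO -0.76 to 0.78 (*Emx2*), and β-catenin KO -0.42 to 1.67 (*Emx2*) and -0.93 to 0.56 (*Ovol1*).

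The number of all genes called, in either direction and over all alternatives, ran from 761 to 2986 for the response in CTRL, 281 to 1186 in α-catenin KO, 368 to 1855 in QCKO and 0 to 57 in β-catenin KO, from 46 to 400 for the difference of response between β-catenin KO and CTRL, and from 240 to 3060 for β-catenin KO against CTRL in high CHIR. It was 0 throughout for the other differences of response (edgeR and DESeq2 included), where limma gave an unadjusted p under 0.05 to 258 genes for α-catenin KO and to 213 for QCKO. It was at most 4 for α-catenin KO and 7 for QCKO against CTRL in high CHIR (928 and 1444 at an unadjusted p under 0.05), and in low CHIR at most 1 for α-catenin KO (109 unadjusted), 2 for QCKO and 189 for β-catenin KO. Low reads limit *Emx2* and *Ovol1* in low CHIR, where 11 reads stood behind the lowest value.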
